A study of Mus musculus with 12 samples.

Results

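Ion channels are membrane proteins with a pore through which ions pass down their gradient, whereas carriers and pumps bind what they move and shift it by a change of shape. In neurons, sodium, calcium and potassium channels that open with the membrane voltage shape the action potential and the release of transmitter, and potassium channels also return the membrane to rest. The Gene Ontology (GO) describes these proteins with terms for an activity, for the protein complex that carries it out, for the transport process and for the regulation of that process, and a gene that belongs to a narrow term also belongs to the broader terms above it.

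H3K4me3, trimethylated lysine 4 of histone H3 and a mark of active promoters, had been profiled by ChIP-seq in the whole hippocampus of 12 mice at postnatal day 30, all on a C57BL/6N background. There were 3 Del/+ mice, which lacked 1 copy of the chromosomal interval from Arf2 to Kansl1 (Crhr1, Sppl2c and Mapt included), 3 Kansl1+/- mice, in which 1 copy of Kansl1 had been inactivated by a cross with mice that express Cre recombinase and which descended from 1 clone of embryonic stem cells, and 6 wt mice, 3 of them littermates of each mutant. Del/+ mice thus also lacked 1 copy of Kansl1. The authors set each mutant against the same 6 wt libraries, called a promoter where DESeq2 gave a p below 0.01 without correction, and derived 8 gene lists. These were the genes with more or with less H3K4me3 in each mutant (up and down), and 4 clusters of the up genes: cluster 1 was up in Kansl1+/- and not in Del/+, cluster 2 was up in both, cluster 3 was up more strongly in Del/+, and cluster 4 was up in Del/+ alone. The list sizes given here are those that the enrichment tables imply. They count genes, and need not equal numbers of promoters called. For Del/+ up, the number of promoters that the authors report is smaller than the number of genes given here.

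For each list a table of GO terms was analysed here. Each of its lines gives the genes of the list in a term, the background genes in the term and the number expected. All listed terms had a p-value below 1e-05 in the authors' enrichment test, and this was taken as the threshold for listing. The ion terms described here are those whose name holds "channel", "ion transport", "ion transmembrane", "transporter" or "membrane potential" and does not hold "synap", "neurotransmitter", "glutamate" or "GABA". There were 46 such terms among the 490 different terms listed, and they made 97 of the 1076 lines of the 8 tables. A term listed for none of the 8 lists could not enter this choice, so the members are listed terms by construction, and how often they were listed is given as a description. The tables name no genes and hold no values per mouse. The depth of the libraries and the spread between mice are therefore unknown, and the label of the tissue was not checked against marker genes here.

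Fold is the number of list genes in a term over the number expected from the sizes of the list, of the term and of the background of 23468 genes. Only the size of that background could be recovered from the tables, not its genes, and an enrichment against genes with an H3K4me3 peak in the hippocampus was not analysed here. Intervals are exact 95% Clopper-Pearson intervals of a share. They cover counting error only, not the differences between mice. Where a term was not listed, the largest gene count with which it would still have stayed off the list is given as its limit. In a whole hippocampus, more mark per cell and more cells that carry the mark cannot be told apart.

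The ion terms were listed mainly for the genes up in Del/+ and for cluster 4. Of the 46 terms, 46 were listed for Del/+ up (512 genes), where 1.18% of the 21172 tested terms were listed. For cluster 4 (162 genes) 40 were listed, against 0.420% of the tested terms, and for cluster 3 (212 genes) 8 were, against 0.590%. For Kansl1+/- up (343 genes) 2 were listed, against 1.43%, and for cluster 2 (214 genes) 1 was, against 0.491%. Cluster 1 (160 genes), Kansl1+/- down (483 genes) and Del/+ down (343 genes) held 0 of the 46, where 0.897%, 0.0661% and 0.00945% of the tested terms were listed. The 2 down lists had few listed terms of any kind, 14 and 2 in all. Most tested terms were listed for no list and could not be members, so these percentages are not a like measure for the 46. Of the 490 different terms that were listed, 250 were listed for Del/+ up, 89 for cluster 4 and 125 for cluster 3. For Kansl1+/- up 302 of them were listed, for cluster 2 104 and for cluster 1 190.

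Ion terms made up 44.9% of the 89 terms listed for cluster 4, 18.4% of the 250 for Del/+ up and 6.4% of the 125 for cluster 3. In Kansl1+/- up, which had the most listed terms of all lists (302), they made up 0.662%. Most of the members, 36 of 46, were listed for exactly 2 lists, 4 for 1 list and 4 for 3 lists. Regulation of ion transmembrane transport was listed for 4 lists and regulation of ion transport for 5, the most of any member. Many ion terms are nested and several lists share genes, so these are not counts of separate results. In cluster 4, no ion term held more than 26 genes.

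**Figure D1:**
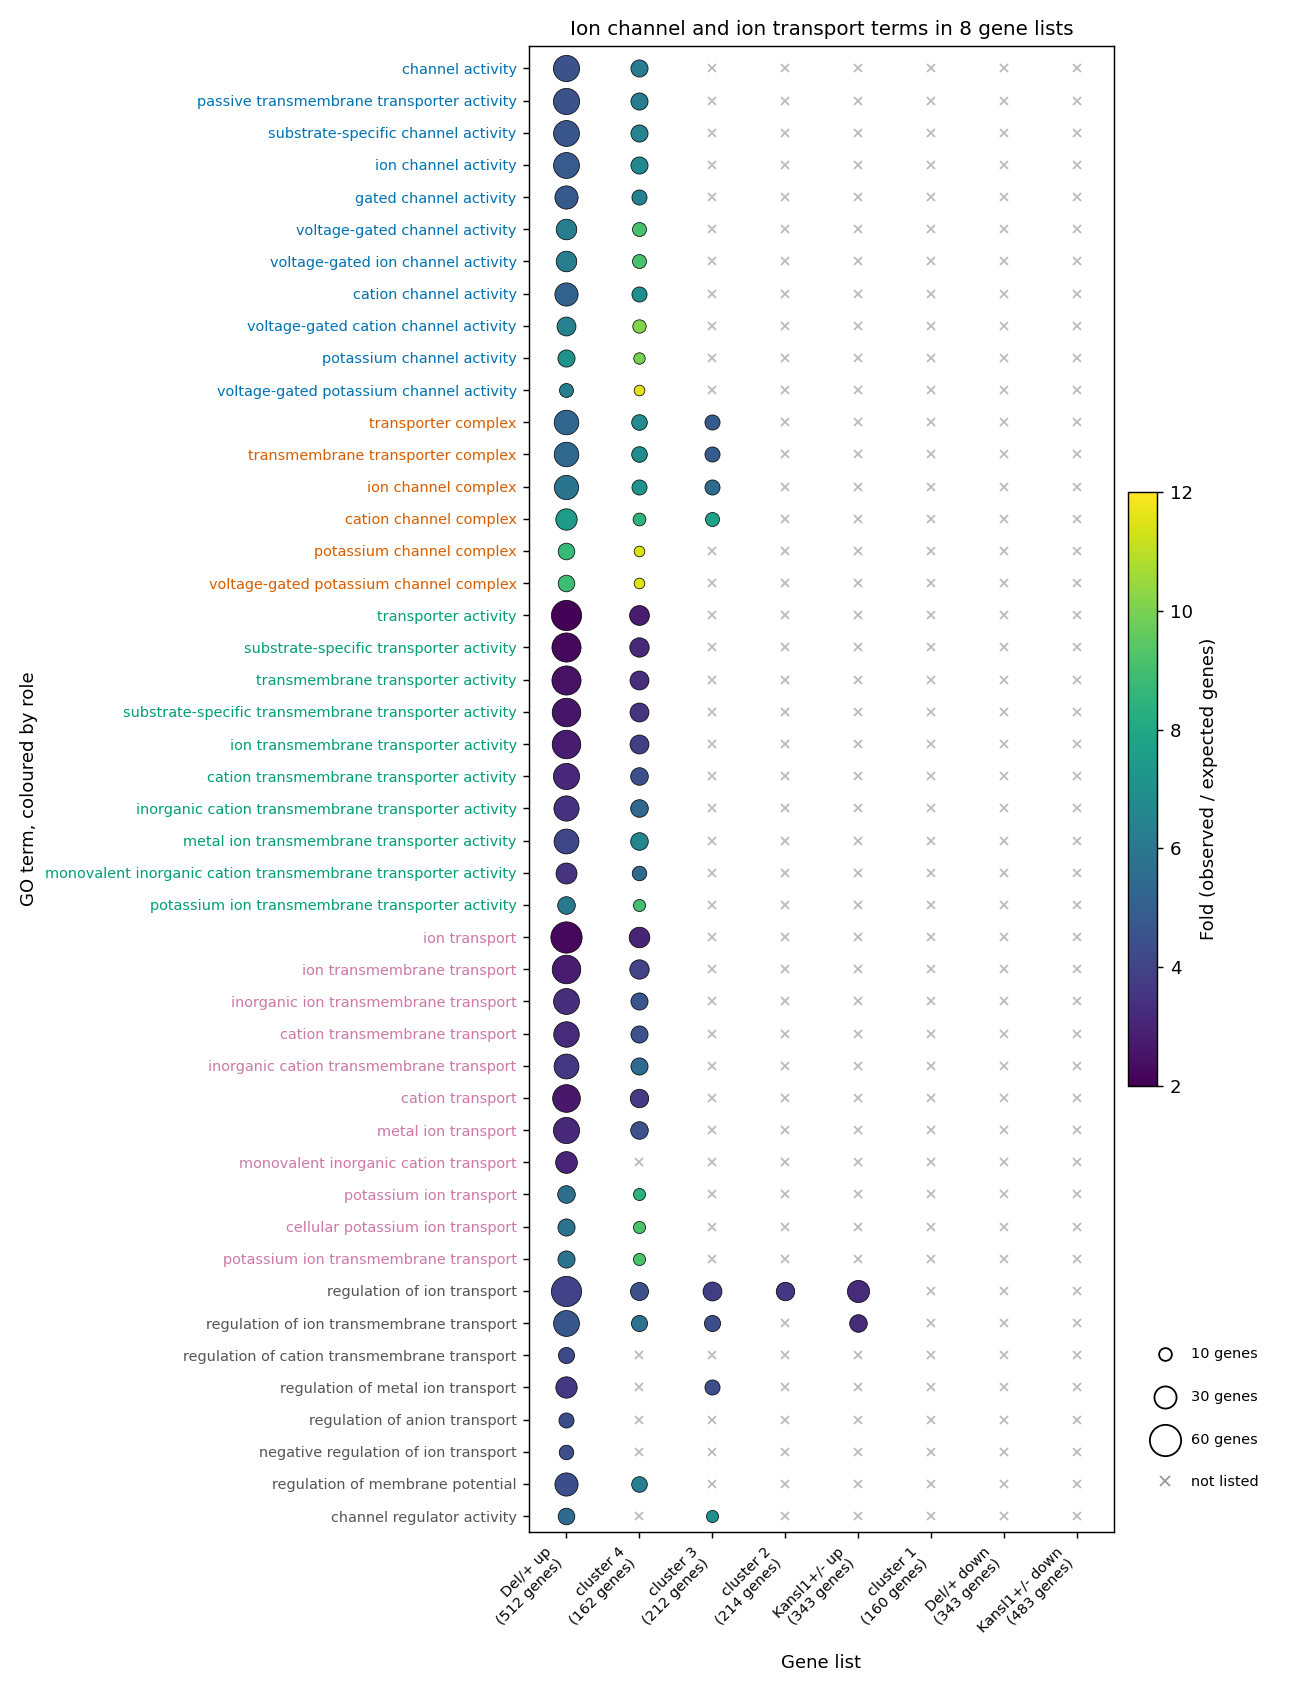
The 46 ion terms (rows, coloured by role) in the 8 gene lists (columns). Point area gives the genes of the list in the term, colour the fold (observed over expected genes) and a cross a term that was not listed. The first column holds 46 points, the second 40, the third 8, and the last 3 hold none.

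The channel activity terms describe the pore-forming proteins by how they open and which ion they pass. Of the 512 genes up in Del/+, 42 had channel activity, where 9.27 were expected (4.53-fold), and 41 of these 42 were counted under ion channel activity (8.51 expected, 4.82-fold, 8.01% of the list, 5.81% to 10.7%). In cluster 4, 18 of 162 genes had ion channel activity against 2.69 expected (6.69-fold, 11.1% of the list, 6.72% to 17.0%). In the background, 1.66% of genes had this activity. As terms are listed only where they exceed expectation, a share above the background restates the listing and is no further result. The intervals of the 2 lists overlapped.

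All 11 channel activity terms were listed for both lists and for no other. Their fold lay between 4.53 and 7.05 in Del/+ up (median 5.15) and between 6.14 and 11.5 in cluster 4 (median 6.90). Passive transmembrane transporter activity had the same counts as channel activity, and voltage-gated ion channel activity the same as voltage-gated channel activity, so that they are different names for sets that cannot be told apart here.

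The voltage-gated channels, which open or close with changes in the membrane voltage, contributed 26 genes to Del/+ up, where 4.17 were expected (6.24-fold), and 12 to cluster 4, where 1.32 were expected (9.10-fold). Among them, voltage-gated cation channels gave 22 genes in Del/+ up (6.42-fold) and 11 in cluster 4 (10.2-fold). In the background, 157 of the 191 voltage-gated channel genes were cation channels, so a large share of cation channels among them is a property of the annotation. Potassium channel activity gave 18 of 117 annotated genes in Del/+ up (7.05-fold) and 8 in cluster 4 (9.91-fold). This was the highest fold among the channel activities in Del/+ up. Voltage-gated potassium channel activity, the smallest of these terms with 88 background genes, gave 12 genes in Del/+ up (6.25-fold) and 7 in cluster 4 (11.5-fold).

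Seen from the side of the terms, 9.88% of all annotated channel genes were in Del/+ up, 13.6% of the voltage-gated channel genes (9.09% to 19.3%) and 15.4% of the potassium channel genes (9.38% to 23.2%), while the list as a whole held 2.18% of all genes. The narrower terms had the higher shares. They are parts of channel activity, so the overlap of their intervals with that of channel activity (7.22% to 13.1%) cannot decide an order among the channel types. Such an order was not tested.

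**Figure D2:**
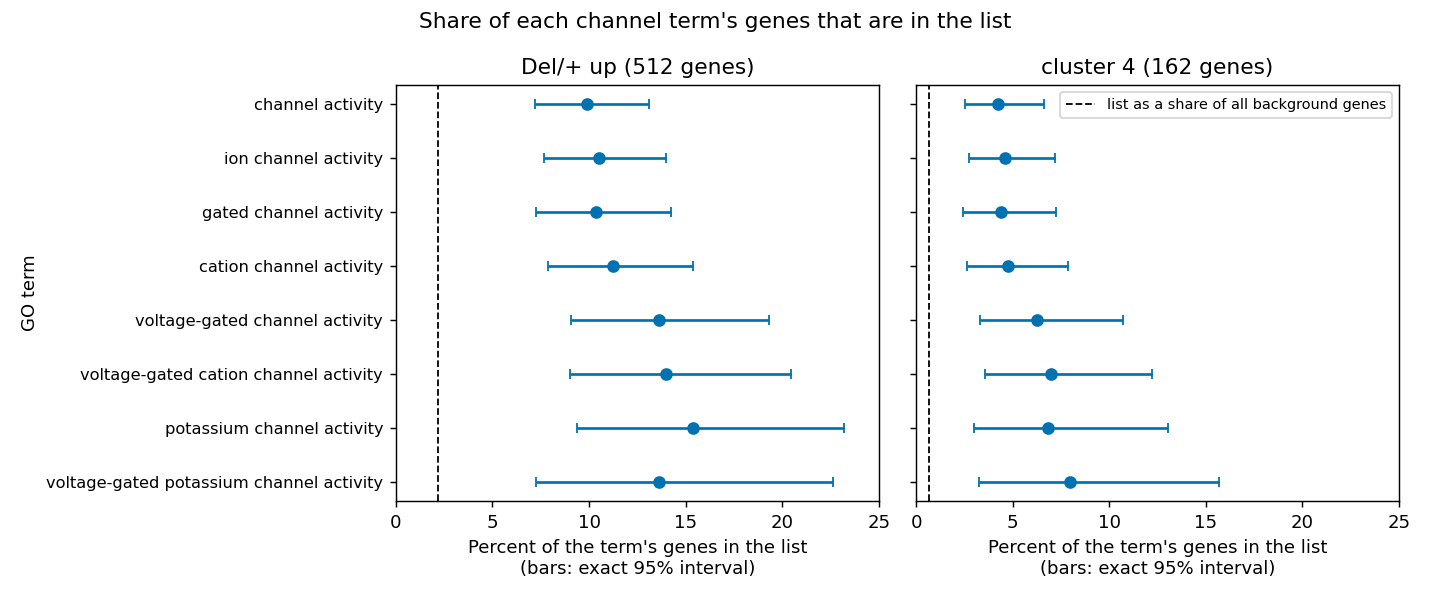
Percent of the genes of 8 channel activity terms that were in Del/+ up (left) and in cluster 4 (right), with exact 95% intervals as bars and the share of all background genes in the list as a dashed line. The intervals of broad and narrow terms overlap, but the narrow terms are parts of the broad ones. The distance to the dashed line follows from the listing of these terms.

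The nesting of the terms allows the genes of a broad term to be split, with the caution that each remainder is a difference of 2 printed counts and holds only if the narrower term lies wholly within the broader one. This was assumed from the general structure of GO. Here and below, a gene said not to belong to a narrower term is one that is not annotated to it. The version of GO behind the tables was not used here. In Del/+ up, 16 of the 234 channel genes that are not voltage-gated were in the list (5.11 expected, 3.13-fold, 6.84% of them, 3.96% to 10.9%). This was below the 6.24-fold of the voltage-gated channels (13.6% of them, 9.09% to 19.3%). The intervals overlapped, and the difference was not tested. Of the 69 voltage-gated cation channels that are not potassium channels, which include the sodium and calcium channels, 10 were in Del/+ up (6.64-fold) and 4 in cluster 4 (8.40-fold). The voltage-gated channel genes of these lists were therefore not potassium channels alone. Of the 29 potassium channel genes not annotated to voltage-gated potassium channel activity, 6 were in Del/+ up (9.48-fold, 20.7% of them, 7.99% to 39.7%). In cluster 4 there was 1. Of the 96 ion channel genes that were not annotated to cation channel activity, whatever ion they pass, 8 were in Del/+ up (3.82-fold) and 4 in cluster 4 (6.04-fold).

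The complex terms count the pore-forming subunits together with the auxiliary subunits bound to them. Transporter complex, the broadest, gave 37 genes in Del/+ up (5.25-fold), 15 in cluster 4 (6.73-fold) and 14 in cluster 3 (4.80-fold), and transmembrane transporter complex counts of 37, 15 and 14 (5.33-, 6.83- and 4.87-fold). In the background, 283 of the 323 genes of transporter complexes are in ion channel complexes, and the counts of the 2 terms were close in each list. Ion channel complex held 36 genes in Del/+ up (5.83-fold), 14 in cluster 4 (7.17-fold) and 14 in cluster 3 (5.48-fold).

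Cation channel complex held 28 genes in Del/+ up (3.73 expected, 7.51-fold), 10 in cluster 4 (8.47-fold) and 12 in cluster 3 (7.77-fold). Cluster 3, whose genes were up in Del/+ more strongly than in Kansl1+/-, had 2 genes in ion channel complexes that are not cation channel complexes. The share of the list in cation channel complexes was 5.47% in Del/+ up (3.66% to 7.81%), 6.17% in cluster 4 (3.00% to 11.1%) and 5.66% in cluster 3 (2.96% to 9.68%), with overlapping intervals.

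The highest folds of Del/+ up among the ion terms were those of potassium channel complex (17 of 89 background genes, 8.76-fold) and voltage-gated potassium channel complex (17 of 88, 8.86-fold). The latter means that 19.3% (11.7% to 29.1%) of the annotated genes of these complexes were in the list. In cluster 4, 7 genes were in each (11.4- and 11.5-fold), and neither of these, nor voltage-gated potassium channel activity, was below 0.05 in the authors' Bonferroni column there. Neither was listed for cluster 3, where up to 7 genes in voltage-gated potassium channel complexes would have gone unlisted. Voltage-gated potassium channel activity and the complex had 88 background genes each, but in Del/+ up 12 and 17 genes, so that at least 5 of the 17 were annotated to the complex and not to the activity.

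The transporter activity terms place channels beside carriers and pumps. Transporter activity gave 56 genes in Del/+ up (27.0 expected, 2.07-fold) and 24 in cluster 4 (8.55 expected, 2.81-fold), the lowest folds of their role. In cluster 4, transporter activity was not below 0.05 in the authors' Bonferroni column. Folds were higher for the metal ion and potassium terms than for the broadest ones, but not for every smaller term. Monovalent inorganic cation transmembrane transporter activity (352 background genes) was 3.52-fold in Del/+ up and 5.35-fold in cluster 4, below the larger metal ion term. Of its 207 genes not annotated to the potassium term, 8 were in Del/+ up (1.77-fold, 3.87% of them, 1.68% to 7.47%). In cluster 4 there were 4 (2.80-fold). Ion transmembrane transporter activity was 2.77-fold in Del/+ up and 3.85-fold in cluster 4, metal ion transmembrane transporter activity 4.15- and 6.55-fold, and potassium ion transmembrane transporter activity 6.01-fold (19 of 145 genes) and 8.99-fold (9 genes). All 10 terms were listed for both lists (medians 2.94 and 4.15) and for no other.

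In Del/+ up, the transporters left after the channels were taken out were near the expected number. After the channels were taken out of transmembrane transporter activity, 555 background genes remained, of which 10 were in Del/+ up, where 12.1 were expected (0.826-fold, 1.80% of them, 0.867% to 3.29%). In cluster 4 there were 4, where 3.83 were expected (1.04-fold, 0.721%, 0.197% to 1.84%). Both intervals held the share of all background genes in the list, 2.18% for Del/+ up and 0.69% for cluster 4. Among the ion transmembrane transporters that are not ion channels, 9 of 437 genes were in Del/+ up (0.944-fold) and 4 in cluster 4 (1.33-fold). Of the 325 cation transmembrane transporters that are not cation channels, 9 were in Del/+ up (7.09 expected) and 5 in cluster 4 (2.24 expected, 2.23-fold, 1.54% of them), with an interval in cluster 4 (0.501% to 3.55%) that also held the 0.69% of all genes. Of the 28 potassium transmembrane transporters that are not potassium channels, 1 was in each list (1.64-fold in Del/+ up and 5.17-fold in cluster 4). Of the 258 transporter genes not annotated to transmembrane transporter activity, 4 were in Del/+ up (0.711-fold) and 2 in cluster 4 (1.12-fold). Of the 56 transporter genes of Del/+ up, 42 were channels, and of the 24 of cluster 4, 18 were.

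**Figure D3:**
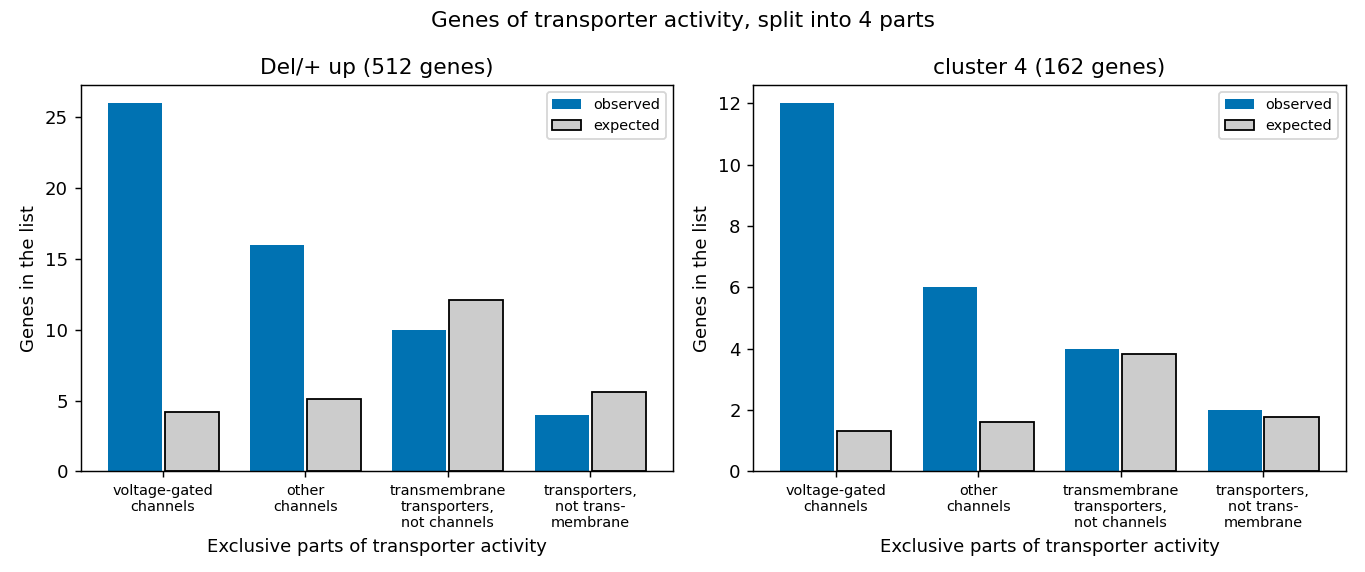
Genes with transporter activity, split without overlap into voltage-gated channels, other channels, transmembrane transporters that are not channels and other transporters, as observed (blue) and expected (grey) numbers of genes in Del/+ up (left) and cluster 4 (right). In Del/+ up, 26 and 16 channel genes stand against 4.17 and 5.11 expected, and 10 genes of transmembrane transporters that are not channels against 12.1.

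The transport process terms follow the movement of ions rather than the protein. Ion transport, the broadest with 1252 background genes, held 60 genes of Del/+ up (27.3 expected, 2.20-fold) and 26 of cluster 4 (8.64 expected, 3.01-fold). The highest folds were those of potassium ion transmembrane transport and cellular potassium ion transport, with equal counts of 18 genes of 142 in Del/+ up (5.81-fold) and 9 in cluster 4 (9.18-fold). For the 11 process terms listed for Del/+ up the median fold was 3.18, and for the 10 listed for cluster 4 it was 4.58. Monovalent inorganic cation transport, which covers potassium, sodium and protons, was listed for Del/+ up only (29 of 440 genes, 3.02-fold). Up to 13 genes of this term in cluster 4 would have gone unlisted, so its absence there does not show a difference.

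Within ion transport, the genes outside cation transport and those outside transport across a membrane were near the expected number in Del/+ up. Of the 434 ion transport genes outside cation transport, 13 were in Del/+ up (1.37-fold, 3.00% of them, 1.60% to 5.07%), and of the 418 outside ion transmembrane transport, 10 were (1.10-fold, 2.39%, 1.15% to 4.36%). Both intervals held the 2.18% of all genes that were in the list. In cluster 4 these remainders held 5 genes (3.00 expected, 1.67-fold, 1.15%, 0.375% to 2.67%) and 3 genes (1.04-fold). Of the 455 metal ion transport genes outside potassium ion transport, 23 were in Del/+ up (2.32-fold, 5.05%, 3.23% to 7.49%) and 10 in cluster 4 (3.18-fold).

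Genes that regulate ion transport include kinases, receptors and auxiliary subunits that set channel opening or number. Of the 8 regulation terms, 2 were the members listed for the most lists, and 3 others were listed for Del/+ up alone. Regulation of ion transport held 56 genes of Del/+ up (3.99-fold), 20 of cluster 4 (4.51-fold), 22 of cluster 3 (3.79-fold), 21 of cluster 2 (3.58-fold) and 30 of Kansl1+/- up (9.40 expected, 3.19-fold). As shares of the lists these were 10.9% (8.37% to 14.0%), 12.35% (7.71% to 18.4%), 10.4% (6.62% to 15.3%), 9.81% (6.18% to 14.6%) and 8.75% (5.98% to 12.25%), against 2.74% of the background. The intervals of the 5 lists overlapped, and both mutants had the same 6 wt libraries as controls. By their definitions the lists also share genes, cluster 2 being up in both mutants. The 5 counts are therefore not separate occurrences, and the overlap does not show that the shares are alike. For cluster 1, up to 15 genes (9.38% of the list) would have gone unlisted.

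Regulation of ion transmembrane transport gave 41 genes in Del/+ up (4.69-fold), 16 in cluster 4 (5.78-fold), 16 in cluster 3 (4.42-fold) and 19 in Kansl1+/- up (5.86 expected, 3.24-fold). In Kansl1+/- up it was not below 0.05 in the authors' Bonferroni column, which leaves 1 ion term for that list at this threshold. Its share was 5.54% in Kansl1+/- up (3.37% to 8.52%) and 8.01% in Del/+ up (5.81% to 10.7%), with overlapping intervals. It was not listed for cluster 2, which could have held up to 14 genes.

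Regulation of membrane potential, the control of the voltage across the cell membrane, was listed for Del/+ up (33 of 345 genes, 4.38-fold) and for cluster 4 (15 genes, 6.30-fold), with the highest fold of the 3 regulation terms of cluster 4. Regulation of metal ion transport (28 genes, 3.61-fold) and channel regulator activity (17 of 143 genes, 5.45-fold) were listed for Del/+ up and for cluster 3 (14 genes, 4.35-fold, and 9 genes, 6.97-fold), but not for cluster 4, where up to 11 and up to 7 genes could have gone unlisted. Channel regulator activity, borne by proteins that bind a channel and change its opening, had the highest fold of the regulation terms in Del/+ up and in cluster 3. In cluster 3, neither it nor regulation of metal ion transport was below 0.05 in the authors' Bonferroni column. Del/+ up alone listed regulation of cation transmembrane transport (16 genes, 4.19-fold), regulation of anion transport (14 genes, 4.34-fold) and negative regulation of ion transport (13 of 136 genes, 4.38-fold). Regulation of anion transport and negative regulation of ion transport were not below 0.05 in the authors' Bonferroni column there.

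**Figure D4:**
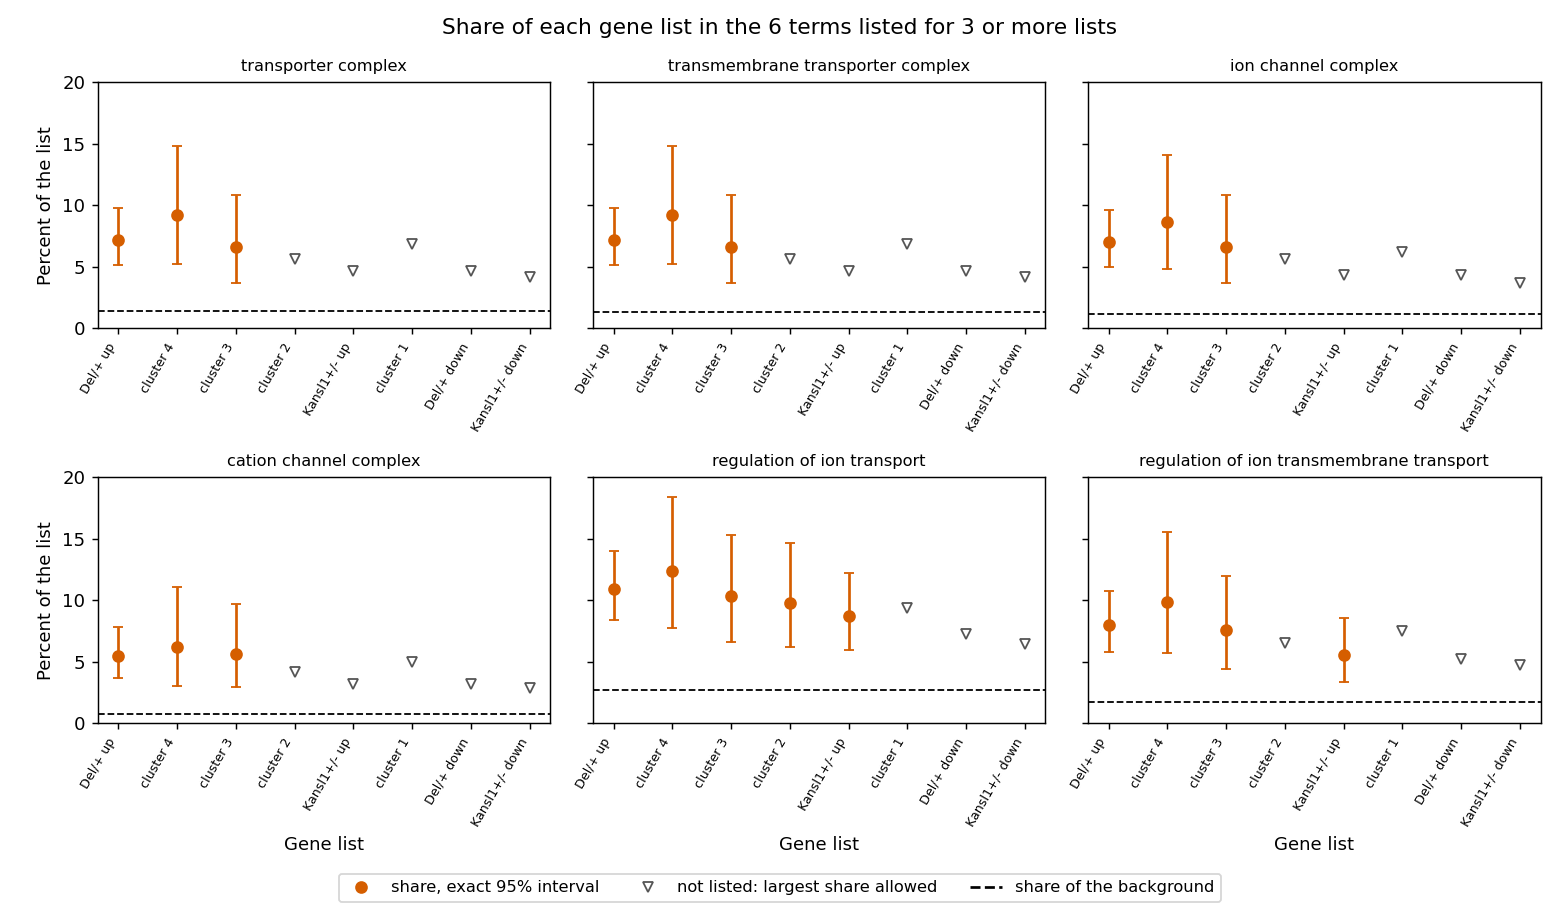
Percent of each of the 8 gene lists in the 6 ion terms listed for 3 or more lists, with exact 95% intervals (orange). Open triangles give the largest share that a list in which the term was not listed can have, and the dashed line gives the share of the background. The orange intervals overlap within each panel, several of the lists share genes, and most triangles lie inside the range of the intervals.

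The 2 mutants can be set side by side only within the limits of the listing. For ion channel activity, Del/+ up held 41 of 512 genes (8.01%, 5.81% to 10.7%), and Kansl1+/- up, for which the term was not listed, at most 18 of 343 (5.25%, or 3.16-fold). For cation channel complex the corresponding values were 28 of 512 (5.47%, 3.66% to 7.81%) and at most 11 of 343 (3.21%). For voltage-gated channel activity they were 26 (5.08%, 3.34% to 7.35%) and at most 12 (3.50%), and for potassium channel activity 18 (3.52%, 2.10% to 5.50%) and at most 9 (2.62%). These limits are the largest counts allowed and have a counting error of their own, and the terms entered through the list in which they are high, so the values do not show that the shares of the mutants differ. As both lists come from comparisons with the same 6 wt libraries, no test of the difference was made.

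The same kind of limit applies to the genes with less H3K4me3. Del/+ down could hold up to 18 ion channel genes of 343 (5.25%) and Kansl1+/- down up to 22 of 483 (4.55%) without the term being listed. For these lists too, a lower share than in Del/+ up was not tested. Among the clusters, at most 12 of 160 genes of cluster 1, 14 of 214 of cluster 2 and 14 of 212 of cluster 3 (6.60%) had ion channel activity. The tables therefore do not show how far the other clusters lie from the 11.1% of cluster 4.

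Cluster 4 did not hold all the channel genes of Del/+ up. All 89 terms listed for cluster 4 were also listed for Del/+ up, and in 89 of 89 the count in cluster 4 was no larger than that in Del/+ up. If cluster 4 is wholly contained in Del/+ up, which its definition implies but the tables do not prove, 350 genes of Del/+ up lie outside it. Of these, 23 had ion channel activity (5.82 expected, 3.95-fold, 6.57%, 4.21% to 9.70%), 14 had voltage-gated channel activity (4.92-fold), 18 were in cation channel complexes (7.06-fold) and 10 in voltage-gated potassium channel complexes (7.62-fold). The counts were above the expected numbers both inside and outside cluster 4, for terms chosen because they were listed. Voltage-gated potassium channel activity was split into 7 genes in cluster 4 and 5 outside it (3.81-fold). No such remainder is given for cluster 3. Of its 125 listed terms, 119 were also listed for Del/+ up, and clusters 2, 3 and 4, with 214, 212 and 162 genes, cannot all be contained in the 512 genes of Del/+ up. Nor can clusters 1 and 2, with 160 and 214 genes, both be contained in the 343 genes of Kansl1+/- up. The definitions of the clusters thus do not match the lists exactly, and this may hold for cluster 4 too.

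In the ranking of the listed terms by fold, main axon came first in cluster 4 and ion terms took 8 of the first 10 and 17 of the first 20 of 89 places. In Del/+ up they took 2 of the first 10 and 3 of the first 20 of 250 places, and in cluster 3 1 and 4 of 125. These places are not separate results, as the ion terms are nested and share genes. The 8 ion terms in the first 10 places of cluster 4 held 7 to 12 genes each. The median fold of the ion terms was 6.33 in cluster 4, 4.46 in Del/+ up and 4.84 in cluster 3, beside 4.45, 3.16 and 3.42 for all listed terms. Small terms need a higher fold to be listed, and the ion terms, with 88 to 1252 background genes, are smaller than many of the others, so these medians are descriptions of the tables. Across the terms listed for Del/+ up and for cluster 4, larger terms had lower folds.

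**Figure D5:**
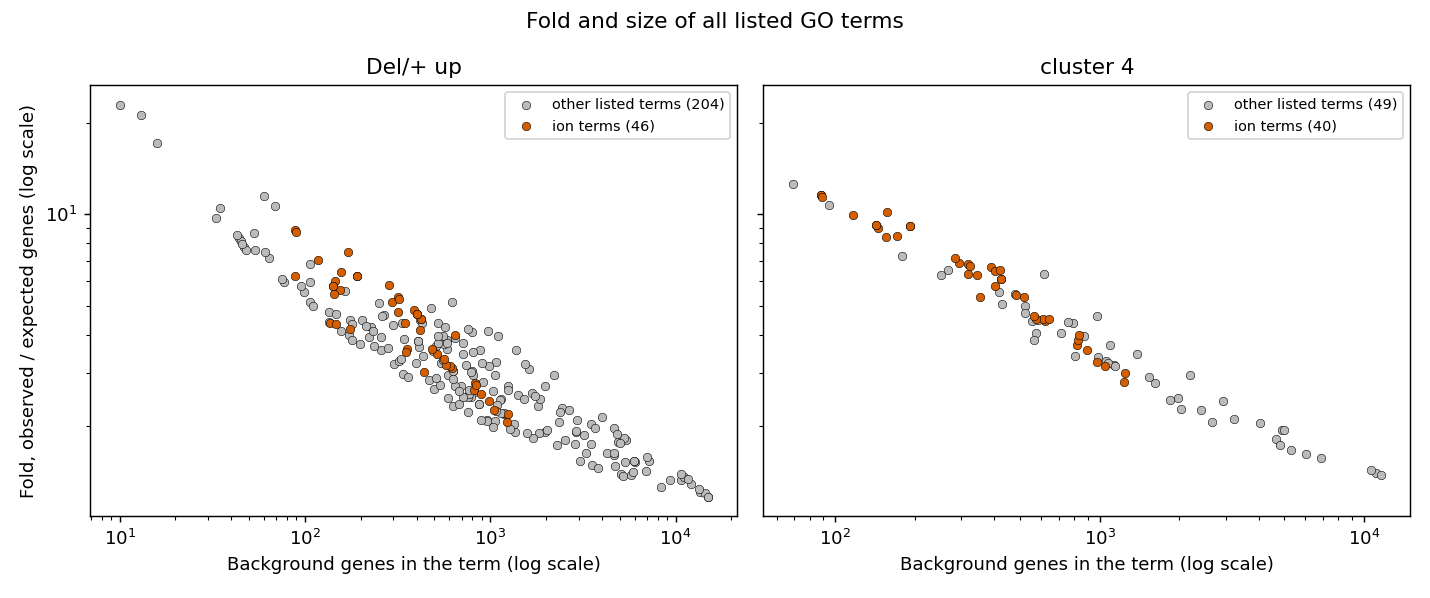
Fold against the number of background genes in the term for all terms listed for Del/+ up (left) and cluster 4 (right), both axes on a log scale, with the 46 and 40 ion terms in orange. Larger terms have lower folds. In Del/+ up, several ion terms lie above the other terms of like size, such as cation channel complex (7.51-fold). Others lie among the terms of like size, such as transporter activity (2.07-fold).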

How the data were processed

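H3K4me3 ChIP-seq libraries came from the hippocampus of 12 mice. The authors sequenced 4 pooled libraries in a lane, aligned the reads with BWA 0.6.2 (genome build mm9 per the submitters' processing notes), called peaks with a C++ program of their own, compared promoters with DESeq2 and tested the resulting gene lists for GO enrichment. The deposited tables hold, per listed term, the p-values, Bonferroni and Benjamini values, the count of list genes and of background genes, the expected number, which is a score computed by the authors, and their fold enrichment. Columns of single samples that were not used number 0. The tables are divided into groups of related terms, and how these were formed is not given in the sources used here.

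The background, the list sizes and the number of terms tested were recovered from the deposited expected numbers and p-values. Of the background sizes from 20000 to 26999, only 1 (23468) returned all 1076 printed expected numbers to 2 decimals. The fold was recomputed from the counts and these sizes. The limit of a term that was not listed is the largest count whose one-sided hypergeometric tail is at or above 1e-05, and 0 of the 1076 listed terms lay at or below it. As every listed p-value was below 1e-05, this does not show that all terms below 1e-05 were listed, which the limits assume. Remainders were formed from 29 pairs of nested terms, and in 59 of 59 comparisons the narrower term had no more genes than the broader one. No test was made, and the authors' p-values are not reported as results. Recovery of the sizes was tested on simulated data.

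Terms were named by a rule: all terms in lists with up to 10 ion terms, and elsewhere, per role, the term with the most genes, the highest fold and the fewest background genes, plus all terms listed for 3 or more lists. The voltage-gated, ion and cation terms and the remainders were added to follow the nesting. The terms, roles, nested pairs and alternatives were chosen with earlier results of these data known. The alternatives were other term rules, merging of terms with equal counts, size and count limits, the authors' Bonferroni column and 1 gene fewer per term. Values were computed in Python 3.11.15 with scipy 1.17.1 and numpy 2.4.6, and plots were drawn with matplotlib 3.10.9.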

Additional observations from a re-analysis of the deposited data

How the results depend on the processing

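The number of listed ion terms depended on how terms are chosen by name. With names that hold "channel" only, it was 15 in place of 46 for Del/+ up, 14 in place of 40 for cluster 4, 3 in place of 8 for cluster 3, 0 in place of 1 for cluster 2 and 0 in place of 2 for Kansl1+/- up. With the authors' Bonferroni column below 0.05 it was 1 in place of 2 for Kansl1+/- up. The counts were 6 for cluster 3, 36 for cluster 4 and 44 for Del/+ up, and the terms lost were regulation of ion transmembrane transport (Kansl1+/- up), regulation of metal ion transport and channel regulator activity (cluster 3), transporter activity, potassium and voltage-gated potassium channel complex and voltage-gated potassium channel activity (cluster 4), and regulation of anion transport and negative regulation of ion transport (Del/+ up). For the other counts, dropping the excluded words, merging terms with equal counts, keeping terms of up to 1000 genes, terms with at least 10 list genes or the Bonferroni threshold moved no count by more than 1.5 times. For Del/+ up and cluster 4, the median fold of the ion terms was 4.53 and 6.50 with terms of up to 1000 genes, 4.38 and 6.30 with equal terms merged, 4.34 and 5.89 with 1 gene fewer per term and, in an alternative chosen after seeing the data, 3.99 and 5.35 without potassium and voltage terms. The largest distance of a recomputed fold from the fold printed by the authors was 0.0049. No paired analysis was possible because the tables hold no values per mouse, and for the same reason no replicate could be left out. Depth is unknown, and small lists limit what can be seen: ion channel activity could hold 12 genes in cluster 1 without being listed.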

Other observations

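Terms for the parts of the axon in which channels are concentrated, and a term for the nerve impulse, do not carry the words used to choose the ion terms. They were listed beside them. In Del/+ up, 6 of the 13 background genes of axon initial segment, where the action potential starts, were in the list (21.2-fold), and 6 of the 16 genes of node of Ranvier, the gaps in the myelin sheath (17.2-fold). Main axon held 16 of 69 genes in Del/+ up (10.6-fold), 6 in cluster 4 (12.6-fold) and 8 in cluster 3 (12.8-fold). Transmission of nerve impulse held 15 of 60 genes in Del/+ up (11.5-fold) and 7 in cluster 3 (12.9-fold). Of these terms, only main axon was listed for cluster 4. The initial segment and the nodes are parts of the axon, so their genes may be among those of main axon, and the folds are not separate results. These terms were chosen after their values had been seen, and how many of their genes are channel genes is not known from the tables.

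The deposited tables group related terms, and the ion terms stood in different company in different lists. In cluster 4, 1 group held 19 ion terms among its 20 and another 6 among its 6, and a group of 5 terms placed 3 ion terms beside axon part and main axon. In Del/+ up, 28 of 32 terms of 1 group and 13 of 13 of another were ion terms. In Kansl1+/- up, the 2 regulation terms stood in a group of 9 with synaptic transmission (28 of 618 genes, 3.10-fold) and regulation of secretion (29 of 768 genes, 2.58-fold). In cluster 2, regulation of ion transport stood with cell-cell signaling (36 of 976 genes, 4.04-fold) and synaptic transmission (25 genes, 4.44-fold).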
